A study of Mus musculus with 6 samples.

Results

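Chromatin accessibility was examined at 10 genes that mark eosinophils, basophils and mast cells, namely Siglecf, Epx, Prg2, Il5ra, Csf2rb, Cpa3, Mcpt8, Fcer1a, Gata2 and Hdc, among 21738 annotated protein-coding genes. A peak was assigned to a gene when its summit lay in the gene body or within 3 kb of an annotated start. The data were ATAC-seq peak lists, which mark DNA open to the Tn5 transposase, from peripheral blood leukocytes of C57BL/6J mice after red cell lysis. Blood of 3 control libraries came from mice kept in normal oxygen. The 3 libraries of high-altitude de-acclimatization (HADA) came from mice housed in a hypobaric chamber that simulates high altitude and then returned to normal oxygen. The study's methods name male mice for both groups and neither group carried a genetic change or received a drug. The day of bleeding of the ATAC-seq mice, and whether a library was 1 mouse, are not given in the sources used here, so p-values may measure only the spread between libraries. The labels and methods name leukocytes, while the results text of the study calls the cells mononuclear, a preparation that would hold few granulocytes. The methods give red cell lysis and washes and name no separation of mononuclear cells. Of 9 neutrophil marker genes, 6 had a peak in all 6 libraries. The preparation itself was not tested here. The cells were not sorted, and more cells of a type and more open DNA per cell cannot be told apart in these lists.

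Eosinophils and basophils are scarce granulocytes of the blood. Eosinophils depend on interleukin 5, whose receptor joins the specific alpha chain Il5ra to the beta common chain Csf2rb, and they store cationic proteins such as Prg2 and Epx in their granules. Basophils and mast cells bind IgE through the receptor that contains Fcer1a, store histamine made by Hdc and proteases such as Mcpt8 and Cpa3, and use the transcription factor Gata2. Several of these genes are not restricted to these cells: Csf2rb is also used by neutrophils and monocytes, Hdc by neutrophils, and Il5ra by some B cells.

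A set of 7 windows of GRCm39 sequence, each from the + strand and around the summit with the highest pileup over the background of its library, illustrates the kinds of region described below. Windows at the Csf2rb and Hdc starts are not shown. Both belong to regions that were lower in HADA, and both hold GATA letters. The Prg2 windows and the Il5ra start belong to regions that were taller in HADA, the Il5ra exon 7 and Hdc intron 10 windows to regions called in HADA libraries alone, and the Hdc intron 9 window to a region called in control libraries alone. The Hdc intron 4 window belongs to a region that was lower in HADA and holds no motif searched. Of these regions, those at Prg2 12.8 kb and Hdc intron 4 had a peak in all 6 libraries and were tested. Capitals mark letters of the GATA, CEBP, PU.1 or AP-1 motifs. The Il5ra start is cut at the 5′ end of the gene.
Prg2 16.2 kb upstream, chr2:84794540-84794740: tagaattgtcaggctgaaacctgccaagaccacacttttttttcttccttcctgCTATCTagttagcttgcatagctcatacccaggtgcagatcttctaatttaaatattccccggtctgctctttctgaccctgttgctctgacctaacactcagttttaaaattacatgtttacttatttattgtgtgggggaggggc
Prg2 12.8 kb upstream, chr2:84797896-84798096: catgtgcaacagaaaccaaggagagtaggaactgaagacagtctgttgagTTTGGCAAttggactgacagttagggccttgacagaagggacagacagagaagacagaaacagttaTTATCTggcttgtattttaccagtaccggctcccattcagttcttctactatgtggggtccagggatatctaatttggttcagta
Il5ra start, chr6:106725999-106726160: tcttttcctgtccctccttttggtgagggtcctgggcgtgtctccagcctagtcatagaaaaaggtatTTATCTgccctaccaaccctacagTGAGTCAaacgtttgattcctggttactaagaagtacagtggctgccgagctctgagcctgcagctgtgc
Il5ra exon 7, chr6:106715247-106715447: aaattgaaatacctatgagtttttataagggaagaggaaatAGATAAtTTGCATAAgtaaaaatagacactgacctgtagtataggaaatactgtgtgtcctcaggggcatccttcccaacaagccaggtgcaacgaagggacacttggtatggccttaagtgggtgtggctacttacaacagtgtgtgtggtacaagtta
Hdc intron 10, chr2:126439419-126439619: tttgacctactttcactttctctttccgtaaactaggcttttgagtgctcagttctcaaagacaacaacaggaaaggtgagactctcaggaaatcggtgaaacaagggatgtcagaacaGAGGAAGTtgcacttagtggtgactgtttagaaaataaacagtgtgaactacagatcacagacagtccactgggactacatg
Hdc intron 9, chr2:126442680-126442880: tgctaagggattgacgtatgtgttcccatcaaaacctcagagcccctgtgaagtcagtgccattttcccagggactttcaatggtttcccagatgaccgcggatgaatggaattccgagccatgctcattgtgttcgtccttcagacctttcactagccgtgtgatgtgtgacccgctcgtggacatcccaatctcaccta
Hdc intron 4, chr2:126448165-126448365: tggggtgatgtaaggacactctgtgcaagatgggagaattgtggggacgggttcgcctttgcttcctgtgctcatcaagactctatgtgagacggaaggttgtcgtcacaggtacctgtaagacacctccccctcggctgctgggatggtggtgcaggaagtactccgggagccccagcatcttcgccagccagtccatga

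Both strands were searched for motif letters in a window of 201 bp centred on the summit with the highest pileup over background in each region. GATA letters (AGATAA or AGATAG, or else TGATAA or TGATAG) lay in 9 of the 18 regions at the 10 genes and in 21.4% of all 62876 regions of the lists. The Il5ra start held them 9 bp from that summit, which was of HADA 2, and also AP-1 letters (TGANTCA, in 5.50% of all regions). CEBP letters (TTGCNNAA, in 8.73% of all regions) lay in 3 of the 18 regions, each of which also held GATA letters. These were Il5ra exon 7, Prg2 12.8 kb and the Csf2rb start, of which the last was lower in HADA. PU.1 letters (GAGGAAGT, in 4.19% of all regions) lay in the Hdc intron 10 window and at the Csf2rb start. RUNX letters (TGTGGTT, in 7.14% of all regions) lay in 1 member region and STAT letters (TTCNNNGAA, in 5.96%) in 2. The composite E-box-GATA motif lay in 0. These matches describe letters and do not show binding, and the motifs can overlap by chance letters.

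On the main chromosomes the control lists held 34045 to 41475 peaks, and the HADA lists 44044 to 45799. Read depth was not analysed here. The pileup is the number of overlapping fragments. Its genome-wide background, taken as the lowest background in a list, stands for relative depth. It ranged from 1.69 to 2.05 for control and from 1.99 to 2.34 for HADA. A summit had to reach a pileup of 7 to 9 to be called over that background, so a missing peak is a height not detectable at this depth. All 3 leukocyte markers (Ptprc, Coro1a and Laptm5) had a peak in all 6 libraries.

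Peaks were called at 6 of the 10 genes in at least 1 library. Siglecf, Prg2, Csf2rb and Hdc had a peak in all 6 libraries, Il5ra in 5 and Cpa3 in 4. Epx (eosinophil peroxidase), Mcpt8 (a basophil protease), Fcer1a (the IgE-binding chain) and Gata2 had no peak in any library. Across all protein-coding genes, 58.0% had a peak in all 6 libraries and 29.2% in none.

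The uncalled genes did not have peaks just outside their borders in most libraries. For Mcpt8, in the mast cell protease cluster (chr14:56319623-56322730), the nearest summit was 59133 to 175923 bp away. For Fcer1a (chr1:173048851-173054781) it was 140165 to 182012 bp away. The nearest summits to Epx (chr11:87754826-87766362) were 10624 to 10741 bp away in all 6 libraries. For Gata2 (chr6:88170559-88184018), control 1 had a summit 3879 bp from the gene with a pileup of 10, and the other 5 libraries had none within 70019 bp.

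**Figure D1:**
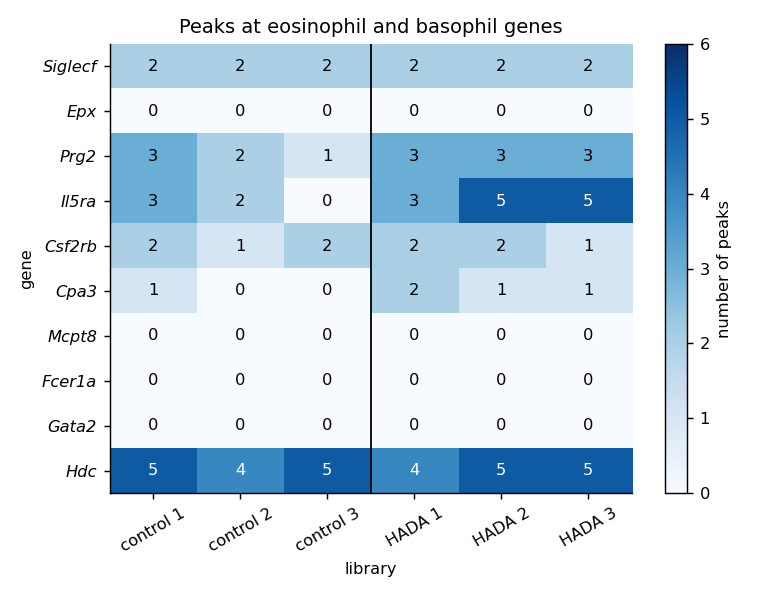
Number of peaks at each of the 10 genes (rows) in each library (columns), with control libraries left and HADA libraries right of the line. Hdc had 4 or 5 peaks in every library, and 4 genes had 0 peaks in all 6 libraries.

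In total 88 peaks were assigned to these genes, with 16, 11 and 10 peaks in the control and 16, 18 and 17 in the HADA libraries. Per 10000 peaks of the library, the level was 3.15 ± 0.623 (SD, n = 3) in control and 3.80 ± 0.254 (SD, n = 3) in HADA. The groups overlapped, with a difference of 0.646 (two-sided exact permutation test, p = 0.3, or 0.45 when adjusted over 12 gene lists). With 3 libraries against 3, this test cannot give a p under 0.1. Genes with a peak numbered 6, 5 and 4 in control and 6 in every HADA library (exact permutation test, p = 0.4). None of the 10 genes (0) had more peaks, and 0 had fewer, in every HADA than in every control library, where 10.6% of the 15381 protein-coding genes with a peak had more and 1.98% had fewer.

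Merging peaks that shared 1 bp gave 18 regions at the 6 genes. Of these, 7 had a peak in all 6 libraries, 2 were called in 3 HADA and 0 control libraries, and 1 in 3 control and 0 HADA libraries. Among all 62876 regions, 7.01% were called in HADA libraries alone and 1.88% in control libraries alone in this way.

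The height of a summit was compared as the pileup, on a log2 scale centred on the median shared region of its library, over the 23970 regions with a peak in all 6 libraries. By limma with Benjamini-Hochberg adjustment at 0.05, 18.4% of them were higher and 24.5% lower in HADA. Of the 7 member regions, 1 was higher and 5 were lower, with a median log2 difference of -1.09 beside -0.04 over all shared regions. These regions lay at Siglecf, Prg2, Csf2rb and Hdc alone. Regions of Prg2 and Il5ra that were taller in HADA but lacked a peak in a control library were not among them. The direction depends partly on the scale. Divided by the library background instead, the median shared region was 0.34 higher in HADA on the log2 scale. Calls were then 32.2% higher and 17.6% lower, so that 64.6% rather than 43.0% of all calls were higher. Of the 7 member regions, 1 was higher and 4 were lower on that scale.

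**Figure D2:**
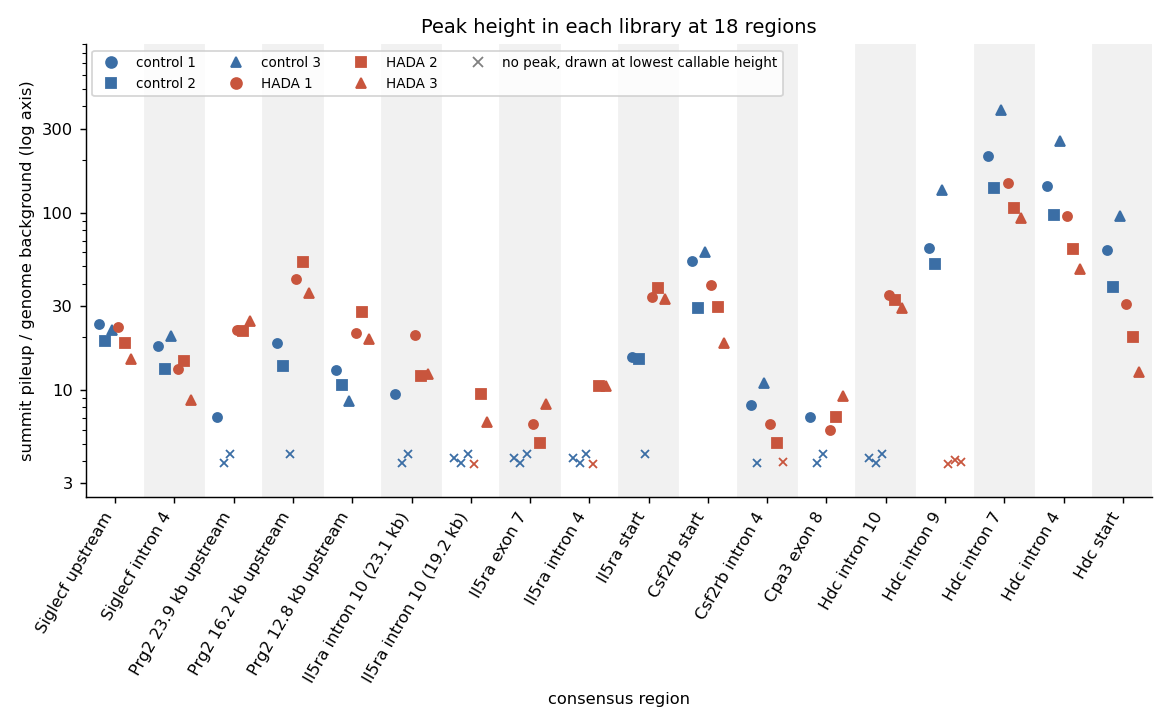
Summit pileup divided by the genome-wide background of the library (log axis) at the 18 regions, with control libraries in blue and HADA libraries in red. Crosses mark libraries without a peak, drawn at the lowest height callable over the genome-wide background, which is higher beside tall peaks. HADA points lay above control points at the Prg2 and Il5ra start regions and below them at the Hdc start.

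Prg2, the eosinophil major basic protein, had 3 regions, all of them far from the start of its canonical transcript. They lay 23.9, 16.2 and 12.8 kb upstream of it, in no exon of the gene, and were assigned because a longer transcript starts at 84789208 on chromosome 2. The farthest lay within the neighbouring gene Slc43a3. The gene spans chr2:84789208-84813977 on the + strand.

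At the region 12.8 kb upstream (chr2:84797638-84798191, shown above with its GATA and CEBP letters) the pileup was 22, 22 and 16 in the control and 49, 55 and 44 in the HADA libraries. Every HADA library was above every control library. Over background the level was 10.8 ± 2.15 in control and 22.6 ± 4.39 in HADA (SD, n = 3), a ratio of 2.09 (exact permutation test, p = 0.1). The centred log2 difference was 0.69 ± 0.23 (SE; limma adjusted p = 0.0394). This call was lost without any one of control 1, control 3, HADA 1, HADA 2 or HADA 3, with limma adjusted p-values of 0.0530 to 0.165.

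The other Prg2 regions were not called in every control library and so entered no test across all 6. At 16.2 kb upstream (chr2:84794196-84795118) the pileup was 31 and 28 in control 1 and 2, without a peak in control 3, and 99, 106 and 81 in HADA. At 23.9 kb upstream (chr2:84786562-84787629) it was 12 in control 1 alone among the controls and 51, 43 and 56 in HADA. With control 3 left out, the centred log2 difference at 16.2 kb was 1.08 ± 0.19 (SE). No p is given, since the library left out is the one without a peak there. The tallest Prg2 peak stood at 8.75 to 18.4 times background in control and 35.6 to 53.2 times in HADA, and Prg2 was the 1 member of the 4 with a peak in all 6 libraries whose groups were apart upward (exact permutation test, p = 0.1; 0.4 adjusted over the 4 genes). Of the 12599 protein-coding genes with a peak in all 6 libraries, 52.3% were apart upward on this scale and 5.37% downward, with 0 members downward.

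Il5ra, the interleukin 5 receptor alpha chain (chr6:106686622-106725998, - strand), had 3, 2 and 0 peaks in control and 3, 5 and 5 in HADA libraries. At the start, control 1 and 2 had a pair of separate peaks each, while each HADA library had 1 peak of 1694 to 1713 bp across the same stretch (chr6:106725878-106727608). The tallest pileup there was 26 and 31 in control 1 and 2, without a peak in control 3, and 79, 75 and 74 in HADA. All HADA libraries were above the controls that had a peak. In control 1 and 2 and in HADA 3 the tallest summit lay 1429 to 1457 bp upstream of the gene, whereas in HADA 1 and 2 it lay 69 and 62 bp upstream, at the window shown above. At their separate peaks near the start, control 1 and 2 had pileups of 16 and 20, with summits 231 and 53 bp upstream. With control 3 left out, the centred log2 difference of the tallest summits, which lay at different positions, was 0.81 ± 0.19 (SE), again without a p for the same reason.

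Within Il5ra, the exon 7 region (chr6:106715167-106715674, coding sequence) was called in HADA libraries alone, with pileups of 15, 10 and 19. These were low peaks. At the local background of the nearest control peak, 10704 to 30836 bp away, a summit needed a pileup of 9, 10 and 12 in control 1, 2 and 3 to be called. A region of intron 10, 23.1 kb into the gene, had a pileup of 16 in control 1, no peak in control 2 and 3, and 48, 24 and 28 in HADA. Regions of intron 10 (19.2 kb into the gene) and intron 4 were called in HADA 2 and 3 alone, with pileups of 15 to 24.

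Siglecf, a sialic acid binding receptor of eosinophils (chr7:43000765-43008955, + strand), had 2 peaks in every library. In intron 4 (chr7:43002444-43003024) the pileup was 30, 27 and 37 in control and 31, 29 and 20 in HADA. The groups overlapped over background, at 17.0 ± 3.59 and 12.2 ± 3.02 (SD, n = 3; exact permutation test, p = 0.3). The centred log2 difference was -0.87 ± 0.27 (SE; limma adjusted p = 0.0310), and over background it was -0.49 (limma adjusted p = 0.203), which is not a call. The call was also lost without HADA 1, 2 or 3, with limma adjusted p-values of 0.0645 to 0.130. The upstream region (chr7:42998995-42999642) had pileups of 40, 39 and 40 in control and 53, 37 and 34 in HADA, a centred log2 difference of -0.59 ± 0.22 (SE; limma adjusted p = 0.0517). Sequence there is partly repeated: the 50 bases at the summit occur 7, 1 and 1 times in the genome for control 1, 2 and 3, and 3, 2886 and 2883 times for HADA 1, 2 and 3.

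Csf2rb, the beta common chain (chr15:78209952-78238047, + strand), had its tallest peak at the start (chr15:78209754-78210971), with pileups of 90, 60 and 110 in control and 92, 59 and 42 in HADA. Over background, 47.5 ± 16.2 in control and 29.1 ± 10.4 in HADA (SD, n = 3) overlapped (exact permutation test, p = 0.3). Centred, the log2 difference was -1.09 ± 0.31 (SE; limma adjusted p = 0.0225), and the groups did not overlap. This call was lost without control 1, HADA 2 or HADA 3, with limma adjusted p-values of 0.0502 to 0.0861. A region of intron 4 was low, with pileups of 10 to 20 where called, and was missing in control 2 and HADA 3.

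Cpa3, carboxypeptidase A3 of mast cells and basophils, had low peaks. Its single region in exon 8 (chr3:20276431-20277967, coding sequence, also within the long noncoding RNA gene Gm31320) had a pileup of 12 in control 1, none called in control 2 and 3, and 14, 14 and 21 in HADA. The HADA heights over background, 5.98 to 9.23, spanned that of control 1, at 7.11.

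**Figure D3:**
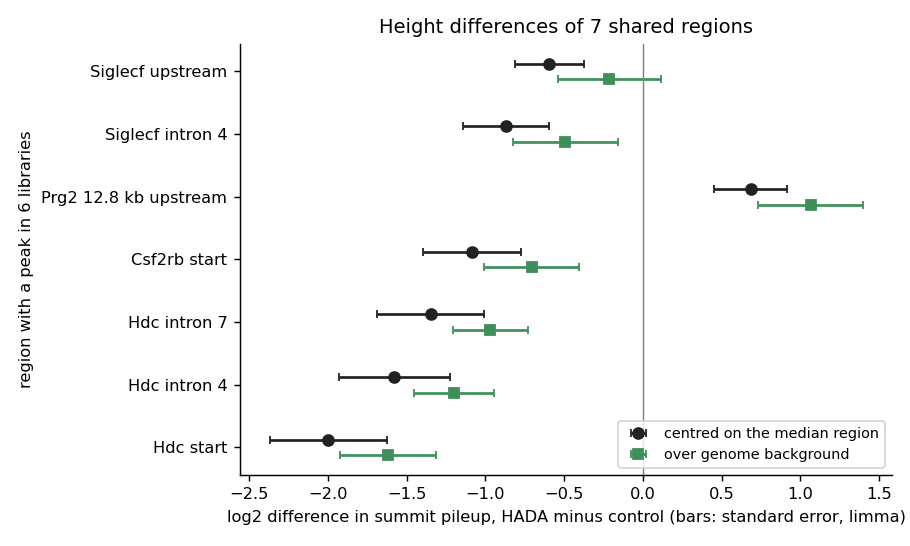
Log2 difference in summit pileup, HADA minus control, of the 7 regions with a peak in all 6 libraries, with limma standard errors as bars. Circles are centred on the median shared region and squares are divided by the genome-wide background. The Hdc and Csf2rb regions were lower and the Prg2 region higher on both scales, by smaller or larger amounts.

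Hdc, histidine decarboxylase (chr2:126435558-126461318, - strand), had the tallest peaks of the 10 genes, and its shared regions were lower in HADA. At the start (chr2:126458954-126461234, exon 1) the pileup was 105, 79 and 175 in control and 72, 40 and 29 in HADA. Every HADA library was below every control library, at a ratio over background of 0.324 (exact permutation test, p = 0.1). The centred log2 difference was -2.00 ± 0.37 (SE; limma adjusted p = 0.00684), the most negative of the 7 regions.

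In intron 4 of Hdc (chr2:126447902-126448760) the pileup was 240, 200 and 468 in control and 225, 125 and 110 in HADA. Over background the groups were apart, at a ratio of 0.418 (exact permutation test, p = 0.1), with HADA 1 close below control 2. The centred log2 difference was -1.58 ± 0.35 (SE; limma adjusted p = 0.0103). In intron 7 (chr2:126443816-126445034), the tallest region, the pileup was 354, 286 and 702 in control and 345, 214 and 214 in HADA. Here the groups overlapped over background (ratio 0.476; exact permutation test, p = 0.2), while the centred log2 difference was -1.35 ± 0.34 (SE; limma adjusted p = 0.0145).

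The start and intron 4 calls held with any 1 library left out, and the intron 7 call was lost without HADA 2 or HADA 3, with limma adjusted p-values of 0.0589 and 0.0509. Control 3 was the tallest library at every control peak of Hdc. Without it the log2 differences were -1.67 at the start, -1.20 in intron 4 and -0.95 in intron 7, each called (limma adjusted p = 0.00193, 0.00217 and 0.00177).

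The tallest region of Hdc also differed in where its summit lay. In intron 7 the summits were at 126444518, 126444447 and 126444448 in control and at 126444153, 126444143 and 126444179 in HADA. The group medians were 295 bp apart, and the closest summits of the groups were 268 bp apart, with HADA summits farther from the start. Of all 23970 shared regions, 318 (1.33%) had group summits at least 200 bp apart without overlap. This measure was chosen after the Hdc summits were seen, and none of the other 6 member regions (0) met it.

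The group-only regions of Hdc lay beside these tall peaks. The intron 10 region (chr2:126439268-126439630) had pileups of 81, 64 and 66 in HADA and no peak in control. The intron 9 region (chr2:126442521-126442975) had pileups of 107, 106 and 247 in control and no peak in HADA. MACS2 calls a peak against the local background, and that background was high there. At the nearest control peak, 3128 to 3261 bp from the intron 10 summit, the local background was 54.4, 47.5 and 112, at which a call needs a pileup of 79, 71 and 148. The HADA pileups of 64 and 66 were below all 3 of these values, and the pileup of 81 was below 1 of them. Depth differed between libraries. Divided by the library background, the HADA heights were 34.61, 32.14 and 29.02, and the control limits 46.80, 34.57 and 80.89. On that scale HADA 1 was below the limits of control 1 and 3 and level with that of control 2. At the nearest HADA peak, 1363 to 1399 bp from the intron 9 summit, the local background was 60.3, 34.2 and 31.3, at which a call needs 87, 54 and 50. The control pileups of 107, 106 and 247 were above all 3 of these. The missing calls allow heights above the 7 to 9 needed elsewhere, and open DNA at these positions in the other group was not measured.

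**Figure D4:**
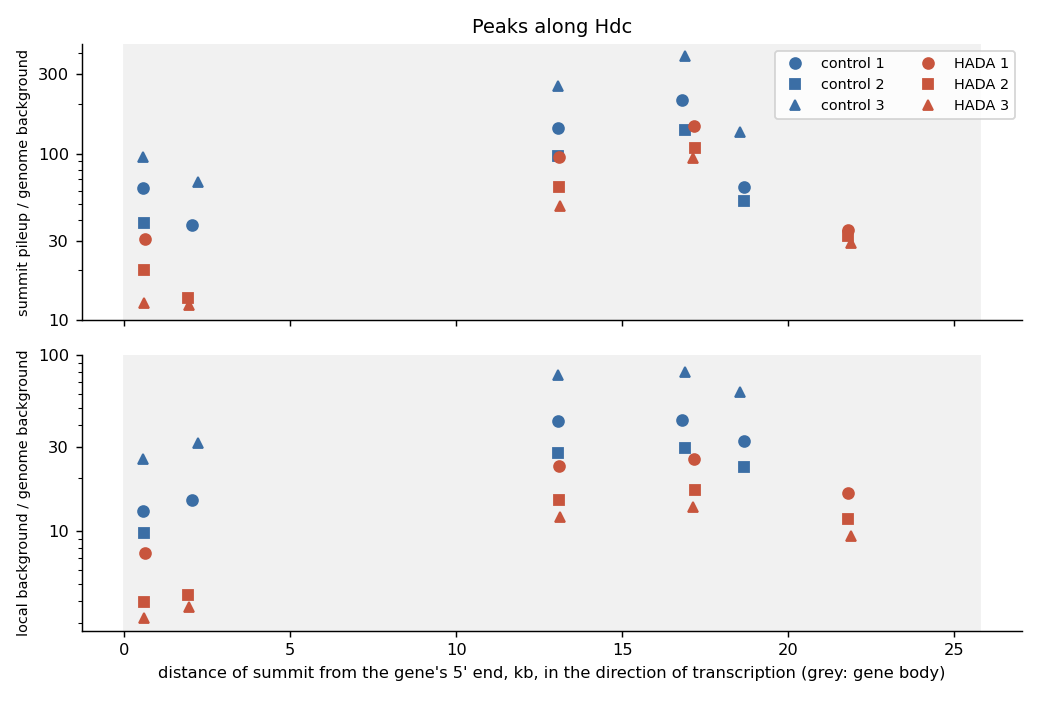
Summits along Hdc by distance from the 5′ end of the gene in the direction of transcription (kb), with summit pileup (top) and local background (bottom), both divided by the genome-wide background on log axes. Control points (blue) stood above HADA points (red) in both panels at most positions, the intron 9 peak was called in control alone, and the intron 10 peak, the farthest from the start, in HADA alone.

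The fold enrichment that the lists give for a peak is relative to this local background and did not follow the heights at the shared regions. At the other Prg2 regions it did. It was 6.32 and 6.06 in control 1 and 2 and 8.32, 9.40 and 7.47 in HADA at 16.2 kb upstream. At 23.9 kb it was 4.84 in control 1 and 12.7, 10.7 and 12.1 in HADA. At the Il5ra start it overlapped, at 7.16 and 7.75 in control 1 and 2 and 8.25, 8.24 and 7.60 in HADA. In intron 7 of Hdc the fold was 4.86, 4.62 and 4.81 in control and 5.64, 6.11 and 6.66 in HADA. At the Prg2 region 12.8 kb upstream it was 4.83, 5.34 and 6.01 in control and 4.49, 5.23 and 4.59 in HADA, where control libraries had a local background of 1.83 to 3.76 and HADA libraries of 8.81 to 10.1. Ranked by fold within each library, all 7 regions changed sign and 0 were called (limma adjusted p = 0.117 to 0.884), where 7.64% of all shared regions were higher and 5.82% lower. At an unadjusted p under 0.05 on this scale, 2 regions passed, those of Hdc introns 7 and 4, where 4920 of the 23970 shared regions passed upward and 3775 downward. Height and fold are different measures of a peak, and both are given for that reason.

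Markers of other blood cells were read beside these values, against 18.4% higher and 24.5% lower calls over all shared regions. B cell markers had 16, 13 and 6 peaks in control and 23, 22 and 23 in HADA, and all 6 of their shared regions were higher, with a median centred log2 difference of 1.99. Neutrophil markers had 16, 15 and 21 peaks in control and 17, 13 and 11 in HADA, and all 8 of their shared regions were lower, with a median of -1.65. No peak was called at Camp of that list. Of the shared regions, 5 of 6 were lower at monocyte markers (median -1.03) and 3 of 10 were higher at T cell markers (median 0.51). Erythroid and platelet markers had 4, 4 and 3 peaks in the control and 5, 5 and 6 in the HADA libraries, and 2 of their 3 shared regions, at Klf1 and Itga2b, were higher (median 0.64). At progenitor markers 3 of 7 shared regions were higher and 1 lower (median 0.49). Of 7 shared regions at leukocyte markers 0 were higher and 2 lower (median -0.22), and the 1 shared region at NK cell markers was not called. Control 3 had the fewest peaks at B cell markers and the most at neutrophil markers, and it was also the library without a peak at Il5ra, without the farther Prg2 peaks, with the lowest pileup at the nearest Prg2 region, and with the tallest Hdc peaks. The part of these cell types in the differences at Prg2, Il5ra, Siglecf, Csf2rb and Hdc was not tested.

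**Figure D5:**
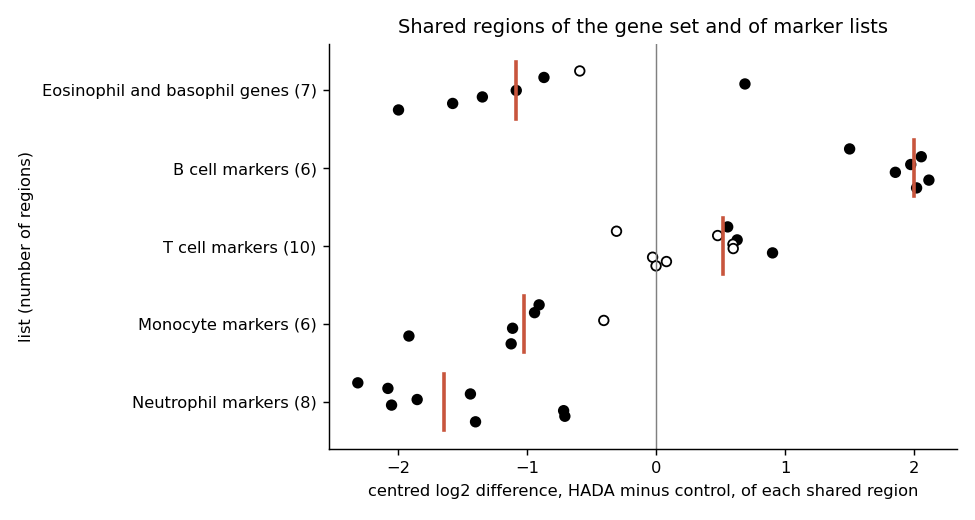
Centred log2 difference, HADA minus control, of each shared region at the 10 genes and at markers of common blood cells. Filled points passed a limma adjusted p of 0.05. The red line is the median, at 1.99 for B cell and -1.65 for neutrophil markers. It was -1.09 for the shared regions at the 10 genes, which lay at Siglecf, Prg2, Csf2rb and Hdc alone.

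Further genes of these cells were read from lists. Of 11 other eosinophil genes, Ccr3 (the eotaxin receptor) had no peak, and of 7 shared regions 0 were higher and 3 lower, with a median log2 difference of -1.0 (18.4% and 24.5% over all shared regions). The lower regions were at the eosinophil ribonuclease genes Ear1, at -1.30 (limma adjusted p = 0.0152), and Ear2, at -1.55 and -1.91 (limma adjusted p = 0.00799 and 0.00628). These genes belong to a family of near copies, and the sequence at the latter Ear2 summit occurs 4 times in the genome, and the position of its reads is uncertain. Called in HADA alone were a region of Zfpm1, a partner of GATA factors, with pileups of 118, 117 and 112, and a region of Adgre1, the gene of F4/80, with 17, 16 and 22. At the nearest control peak a call in Zfpm1 needed a pileup of 48, 46 and 39, and in Adgre1 of 9, 10 and 9.

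Of 16 other basophil and mast cell genes, 7 had no peak in any library: Ms4a2, Prss34, Mcpt4, Tpsb2, Tpsab1, Il1rl1 and Il13. These include the beta chain of the IgE receptor and the mast cell tryptases. Of 8 shared regions 2 were higher and 4 lower, with a median of -0.39, beside 18.4% and 24.5% over all shared regions. Hpgds, the prostaglandin D synthase of these cells, had pileups of 44, 26 and 22 in control and 102, 89 and 82 in HADA, a log2 difference of 1.00 (limma adjusted p = 0.0125). Ltc4s, leukotriene C4 synthase, was higher at one region, by 0.65 (limma adjusted p = 0.00995), and had another called in control alone, with pileups of 45, 33 and 54, where a call at the nearest HADA peak needed 38, 32 and 33. Fcer1g, the signalling chain that Fcer1a shares with receptors of other myeloid cells, was lower, with pileups of 121, 107 and 171 in control and 69, 47 and 38 in HADA (log2 difference -2.01; limma adjusted p = 0.00628). One region each of Mitf, Cd200r3 and Cebpa was also lower, at -1.79, -1.26 and -1.03 (limma adjusted p = 0.00628, 0.0132 and 0.00706), and the Cd200r3 summit sequence occurs 9 times in the genome. A further shared region of Mitf and of Cd200r3 was not called, at 0.25 each (limma adjusted p = 0.225 and 0.270).

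Of 10 genes of beta common receptor signalling, the cytokine genes Il3 and Il5 had no peak. The third cytokine gene, Csf2, had a peak in HADA 2 alone, with a pileup of 9. Of 11 shared regions 0 were higher and 2 lower, with a median of -0.22, where 18.4% of all shared regions were higher and 24.5% lower. The lower regions were at Csf2ra, the alpha chain for GM-CSF (log2 difference -0.91; limma adjusted p = 0.0174), and Csf2rb2, the interleukin 3 specific beta chain (-1.42; limma adjusted p = 0.00674). A region of Jak2, the kinase of these receptors, was called in HADA alone, with pileups of 16, 19 and 20. At the nearest control peak a call needed a pileup of 26, 8 and 26, so that the HADA heights were below the limits of control 1 and 3.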

How the data were processed

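ATAC-seq peak lists of 6 leukocyte libraries (3 control and 3 HADA, grouped by the labels) were analysed. Per the labels and the study's methods, the authors used Trimmomatic for trimming, Bowtie2 for alignment to GRCm39, Picard for duplicates and MACS2 for peak calling, library by library as the names of the peaks show. MACS2 options, tool versions and any Tn5 shift are not given in the sources used here, so summits may be off by a few bases. The deposited columns are a fold enrichment (the summit against its local background), a −log10 of the p-value, a −log10 of the q-value and a whole-number score, all relative to 1 library. The authors' count matrix was not used here.

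The summit pileup and local background were solved from each fold and −log10 p-value, with 100% of peaks solved. Genes and transcripts came from GENCODE on GRCm39, and sequences were read from that genome. Peaks sharing 1 bp were merged. Heights were compared by limma (version 3.58.1, R 4.3.3) with an intensity trend, and single values by two-sided exact permutation tests (scipy 1.17.1), and the limma step was tested on simulated data. Sequence copies were counted for the 50 bases at a summit. Genes, lists and motifs were chosen with earlier results of these data known. Regions named were those of all 6 libraries, group-only regions, and the tallest region of a member with neither, and the other regions are given briefly. Other genes are named where group-only or called. Genes most like Gata2 were to be listed, which could not be done because Gata2 had no peak. Alternatives changed the peak threshold, list length, depth, gene window, merging, scale, block and libraries.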

Additional observations from a re-analysis of the deposited data

How the results depend on the processing

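Peaks per 10000 at the 10 genes differed by -0.0509 with promoter summits only (exact permutation test, p = 0.8), against 0.646, by 0.294 with equally long lists (p = 0.9), 0.356 with summit sequences found once (p = 0.3), 0.403 at a −log10 q of at least 5 (p = 0.4), and by 0.403 to 0.998 with a library left out, the groups being apart only without control 1. Regions called in HADA alone numbered 1 at a −log10 q of at least 5, 0 with equally long lists, 1 in promoters, 3 with peaks joined by summit windows and 2 to 5 with a library left out (5 without control 1, 4 without HADA 1), against 2. Regions called in control alone numbered 2 with peaks joined by summit windows, against 1. That setting splits the Hdc intron 7 region by its separate summits. Members whose tallest peak was higher in every HADA library numbered 1 to 2, and lower 0 to 2, with a library left out (2 higher without control 3, 2 lower without control 2 or without HADA 1). With all libraries kept, 52.3% of protein-coding genes with a peak in each were higher in this way and 5.37% lower.

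Over all shared regions, 4417 were higher, against 7710 with pileups over background, and 1832 were higher and 1396 lower by rank of the fold. Of 36124 regions of at least 4 libraries, 7364 (20.4%) were higher, against 18.4% of the 23970 shared ones. With a library left out, 1379 to 5444 were higher and 2947 to 6419 lower, the lowest counts being without HADA 2. Higher calls also fell to 2296 without HADA 1 and 2037 without HADA 3. At the 10 genes 0 regions were higher and 0 lower by rank of the fold, 4 were higher with regions of at least 4 libraries, and 0 to 2 were higher and 2 to 5 lower with a library left out (0 higher without control 1 or any HADA library, 2 lower without HADA 2 or HADA 3). The 4 entered the fit through their HADA peaks, with uncalled controls filled in at a floor, so their p-values are not given. The call at Prg2 12.8 kb upstream was lost in that fit (limma adjusted p = 0.0624). At a −log10 q of at least 5, 6 member regions were lower, beside 23.2% of all shared regions. Siglecf upstream was called lower there and with peaks joined by summit windows (limma adjusted p = 0.0491 and 0.0441). By rank of the fold the differences in normal score were 0.36 and 0.072 at Siglecf (upstream and intron 4), -0.25 at Prg2, 0.10 at Csf2rb, and 0.47, 0.45 and 0.050 at Hdc (intron 7, intron 4 and start). The higher local background at the taller peaks accompanies this, and its cause was not tested.

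With the replicate number as a block, 0 member regions were higher and 4 lower, beside 13.9% and 24.0% of all shared regions. The calls at Siglecf intron 4 (limma adjusted p = 0.0564) and Prg2 (0.0823) were lost. The labels do not say that numbers mark pairs, and libraries of the same number did not deviate together (correlations -0.08, 0.08 and -0.38). Read depth, and heights in libraries without a peak, limit all comparisons.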
